A study of Mus musculus with 6 samples.

Results

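The constitutive proteasome genes and their regulators were examined in mouse neutrophils. The set held the genes of the deposited count table whose symbol starts with Psma, Psmb, Psmc, Psmd, Psme, Psmf or Psmg followed by a digit. Psmb8, Psmb9 and Psmb10, the interferon-induced immunoproteasome subunits, were left out. This gave 47 genes of the 25663 in the table. By their known roles 45 of them were placed in the proteasome or its regulators. The other 2 were kept apart. Psmc3ip, a recombination factor, matches by symbol only. Psme2b is annotated as a protein-coding copy of Psme2, and whether it acts like Psme2 was not examined. All 47 are accounted for here, and 45 had enough reads to be tested. The remaining pair, the testis-type alpha subunit Psma8 and the thymus-type beta subunit Psmb11, stayed at or below 0.270 CPM (counts scaled to a common library size) in every sample.

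The proteasome degrades proteins that carry ubiquitin chains. Its barrel, the 20S core, stacks alpha rings that gate the entrance on beta rings that hold the catalytic sites. The 19S cap binds ubiquitin chains and unfolds substrates with a ring of ATPases. Other caps, the PA28 and PA200 activators, open the core without ubiquitin or ATP. Dedicated chaperones assemble both parts and leave the finished particle. In interferon-stimulated cells the immunoproteasome subunits replace the constitutive catalytic subunits, and PA28alpha and PA28beta are induced with them. In mammalian cells the transcription factor NFE2L1 raises proteasome subunit genes together when proteasome activity falls short.

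The cells were bone marrow neutrophils of C57BL/6 mice, sorted as positive for CD45, CD11b and Ly6G. They were kept for 6 hours with LPS and resveratrol, a plant polyphenol given as 25 μmol per the labels (LPS+resveratrol, n = 3), or with LPS, a bacterial cell wall component, alone (LPS, n = 3). The series text speaks of sequencing in duplicate, whereas 3 samples per group are labelled and were used as such. All samples had thus received LPS, and no sample without it was analysed here. Whether the 3 samples of each group were taken from different mice is not stated in the labels, so all p-values reflect sample-to-sample spread that may be technical only. Because RNA came from bulk cells, fewer cells of a type and less RNA per cell cannot be told apart.

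Total counts were between 18141352 and 19928153 per sample. LPS+resveratrol replicate 1 stood apart from all other libraries, so the comparison was made over all 6 libraries and over the 5 without it. Between replicates the counts varied by 19.8% with all 6 libraries and by 7.46% with 5 (edgeR's biological coefficient of variation). The neutrophil label was met by its markers, whose summed level was 16910 to 39970 CPM with resveratrol and 35340 to 38160 CPM with LPS alone. S100a8 and S100a9, with transcripts of 486 and 519 bases, make up most of that sum. Resveratrol replicate 1 had 2579 and 8125 CPM of them, the lowest of all samples. In that replicate Ly6g and Retnlg were also below replicates 2 and 3, while Cxcr2, Csf3r, Mmp8 and Itgam were above them. Over 5 libraries 3 of the 8 neutrophil markers (S100a8, Ly6g and Mmp8) were called higher, beside 11.8% of all tested genes. None was called lower, beside 12.9%, and none was called over 6 libraries. The 5 progenitor markers (Elane, Mpo, Prtn3, Ctsg and Ms4a3) summed to 164 to 246 CPM with resveratrol and 346 to 380.2 CPM with LPS alone. All 5 of them were called lower over 5 libraries and 1 was called lower over 6, beside 12.9% and 1.17% of all tested genes. Monocyte markers summed to 2145 to 2303 CPM with resveratrol and 1994 to 2021 CPM with LPS alone. Adgre1 and Csf1r make up most of that sum, and its rise comes from Adgre1, which averaged 1392 CPM with resveratrol and 1042 CPM with LPS alone. Adgre1 was the 1 of these 8 markers called higher over 5 libraries, beside 11.8% of all tested genes. Another 4 (Csf1r, Ly86, Ms4a7 and Cx3cr1) were called lower, beside 12.9%, and the median log2 fold change was −0.26. B cell markers summed to 87.8 to 133 CPM with resveratrol and 141 to 152 CPM with LPS alone. T and NK cell markers were at 6.95 to 8.31 CPM with resveratrol and 11.1 to 11.99 CPM with LPS alone. Dendritic cell markers were at 17.8 to 19.8 CPM with resveratrol and 17.2 to 20.5 CPM with LPS alone. Eosinophil and basophil markers reached 67.6 to 103 CPM with resveratrol and 111 to 115 CPM with LPS alone. Erythroid markers reached 12.04 to 90.8 CPM with resveratrol and 68.4 to 84.5 CPM with LPS alone. Over 5 libraries 2 of 5 B cell and 2 of 6 T and NK cell markers were called lower, beside 12.9% of all tested genes. So were 1 of 4 tested dendritic, 1 of 5 eosinophil and basophil and 1 of 5 erythroid markers. In these lists none was called higher, and none was called over 6 libraries. The part of these cells in the results was not tested.

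Over 5 libraries the PA28 activator genes were lower with resveratrol, while no gene of the 20S core passed the test. Psme1 and Psme2, which encode PA28alpha and PA28beta, had log2 fold changes of −0.40 and −0.51, the largest in size among the called members apart from the Psme2 copy. Of the 45 tested members, 3 passed the test upward (Psmd11, Psme4 and Psmd1), 4 passed it downward (Psme2, Psme2b, Psme1 and Psme3), and 38 did not pass. That is 15.6% of the tested members, beside 24.7% of all 13791 tested genes (edgeR's quasi-likelihood test at 0.05). Among all genes 11.8% were called higher and 12.9% lower. Their median log2 fold change was −0.05, beside −0.01 for all tested genes. With offsets for transcript length and GC content, 8 members were called higher (Psma7, Psmc2, Psmd1, Psmd2, Psmd4, Psmd7, Psmd11 and Psme4), and the same 4 were called lower. These 12 are 26.7% of the members, beside 25.2% of all genes in that fit (13.6% higher and 11.6% lower), so whether the members' share lies below or above that of all genes depends on these offsets.

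Over all 6 libraries no member passed the test, beside 1.83% of all 13468 tested genes (0.668% higher and 1.17% lower). The smallest adjusted p by edgeR's quasi-likelihood test was 0.0953, for Psme1. At an unadjusted p under 0.05, 5 of the 45 members passed, which is 11.1% beside 19.9% of all tested genes. DESeq2 called 1 member, Psme1, lower, and limma-voom called 0. The groups did not overlap for 17 of the 45 members over 6 libraries (37.8%, beside 33.3% of all tested genes). With resveratrol 3 of these lay above the LPS samples and 14 below, beside 17.3% and 15.9% of all tested genes. Over 5 libraries 27 did not overlap (beside 49.3% of all tested genes), 12 above and 15 below, beside 25% and 24.3% of all tested genes.

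**Figure D1:**
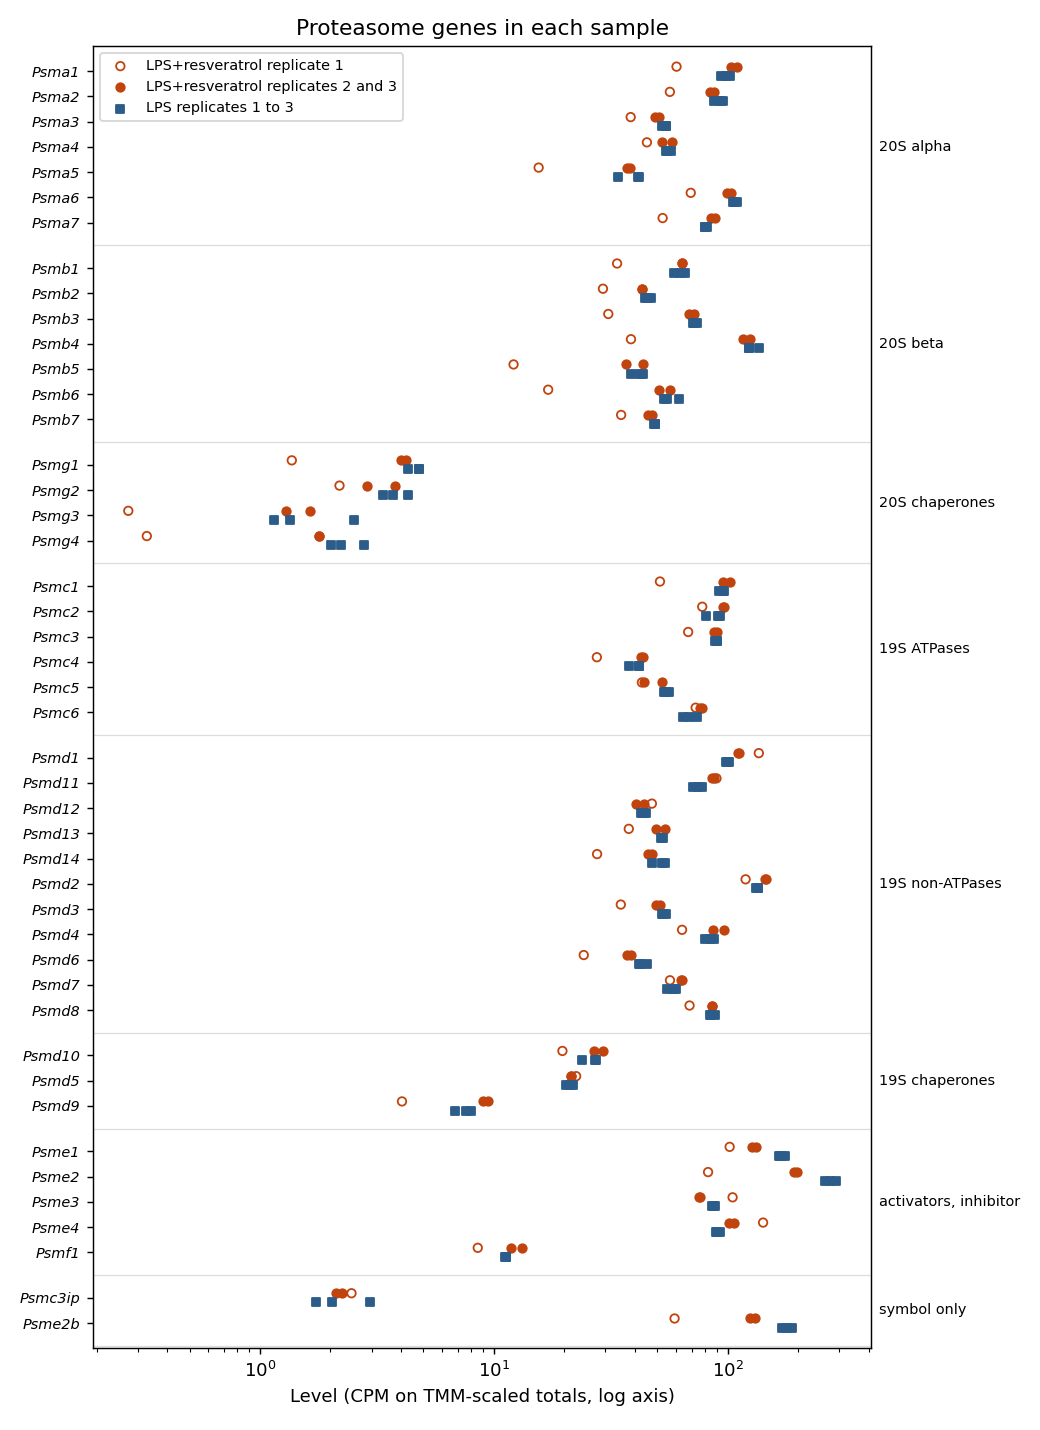
Level of each of the 45 tested members in every sample, in CPM on a log axis, ordered by role. Open circles are LPS+resveratrol replicate 1, filled circles replicates 2 and 3, and squares the 3 LPS samples. Replicate 1 is the lowest of the 6 samples for 36 members, most widely for the 20S beta ring and the 20S assembly chaperones, and the activators Psme1 and Psme2 lie apart between the groups.

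**Figure D2:**
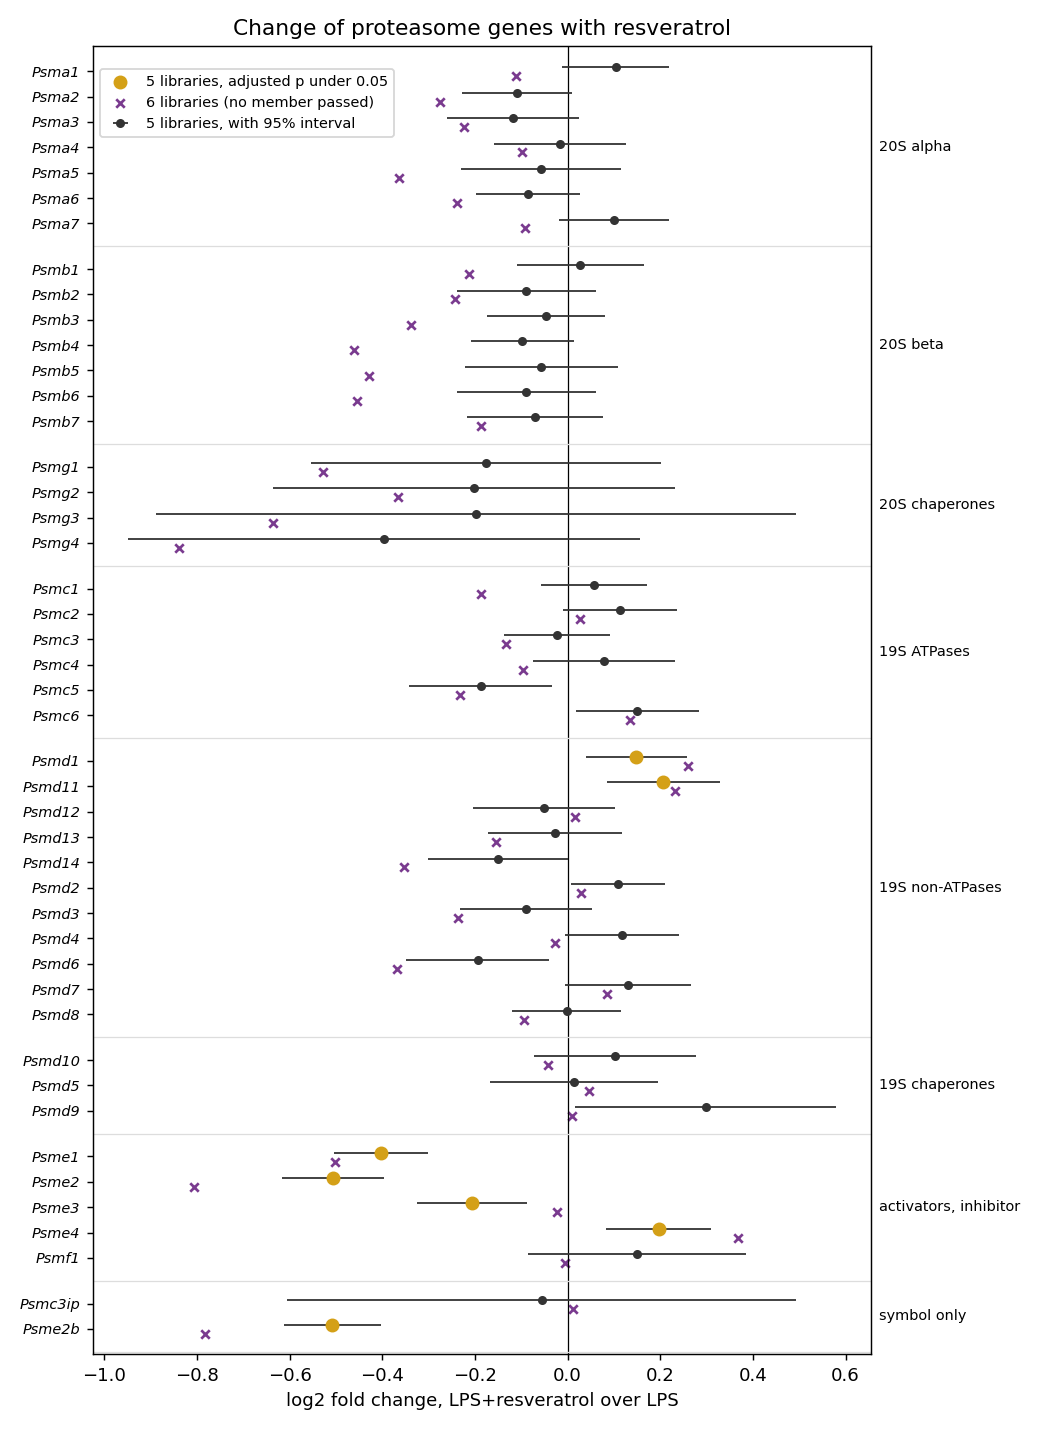
Log2 fold change of each tested member, LPS+resveratrol over LPS, by role. Circles with bars give the value over 5 libraries with its 95% interval, larger yellow circles mark adjusted p under 0.05 (edgeR), and crosses give the value over 6 libraries. The 7 called members fall in the activators, the 19S non-ATPase subunits and the Psme2 copy.

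The alpha ring gates the core, and all 7 of its tested subunits stayed within a narrow range. Over 5 libraries their log2 fold changes ran from −0.12 (Psma3) to 0.10 (Psma1), with a median of −0.06, and none passed the test. Psma6, with the highest mean of the alpha genes over the 6 samples, had 69.5, 104 and 99.3 CPM with resveratrol, against 110, 107 and 105 CPM with LPS alone. Its resveratrol samples were all below the LPS samples, by a little in replicates 2 and 3 and by more in replicate 1. The log2 fold change of Psma6 was −0.09 ± 0.06 (SE) over 5 libraries and −0.24 ± 0.16 over 6 (adjusted p = 0.286 and 0.435, edgeR's quasi-likelihood test). Over 6 libraries all 7 alpha genes had negative values, from −0.36 (Psma5) to −0.09 (Psma7). Psma1 and Psma7 changed sign between the comparisons: their log2 fold changes were 0.10 each over 5 libraries and −0.11 and −0.09 over 6. Psma7 did pass upward over 5 libraries with the length and GC offsets (0.16, adjusted p = 0.0352, edgeR). Replicate 1 was the lowest sample for each of the 7.

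The beta ring holds the proteolytic sites. Psmb5 encodes the chymotrypsin-like, Psmb6 the caspase-like and Psmb7 the trypsin-like subunit. Psmb5 had 12.1, 43.3 and 36.5 CPM with resveratrol, against 42.1, 43.3 and 38.5 CPM with LPS alone. Psmb6 had 17.1, 50.7 and 56.7 CPM with resveratrol, against 53.6, 62.0 and 55.1 CPM with LPS alone. Psmb7 had 35.0, 45.5 and 47.5 CPM with resveratrol, against 48.7, 48.2 and 49.0 CPM with LPS alone. Replicate 1 was far below the other samples for Psmb5 and Psmb6 and less so for Psmb7. Replicates 2 and 3 overlapped the LPS samples for Psmb5 and Psmb6 and lay just below them for Psmb7.

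Over 5 libraries the log2 fold changes of these catalytic genes were −0.06 ± 0.08 for Psmb5, −0.09 ± 0.07 for Psmb6 and −0.07 ± 0.07 for Psmb7 (SE). The 95% interval was −0.22 to 0.11 for Psmb5, −0.24 to 0.06 for Psmb6 and −0.22 to 0.08 for Psmb7. None passed edgeR's quasi-likelihood test, where the adjusted p was 0.678 for Psmb5, 0.424 for Psmb6 and 0.535 for Psmb7. Over 6 libraries the values were −0.43 ± 0.40 for Psmb5, −0.45 ± 0.39 for Psmb6 and −0.19 ± 0.14 for Psmb7. Psmb4, a structural beta subunit and the most abundant beta gene, had 38.6, 116 and 124 CPM with resveratrol, against 124, 136 and 124 CPM with LPS alone. Its replicates 2 and 3 overlapped the LPS samples while replicate 1 was far lower. All 7 tested beta genes lay between −0.10 (Psmb4) and 0.03 (Psmb1) over 5 libraries and between −0.46 (Psmb4) and −0.19 (Psmb7) over 6. None passed either test.

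Summed over both rings, the 20S genes reached 535, 967 and 953 CPM with resveratrol, against 991, 999.6 and 950.3 CPM with LPS alone. The sums of replicates 2 and 3 fell within the range of the LPS samples. Per kilobase of transcript, alpha genes averaged 17.5 (Psma3) to 97.4 (Psma6) CPM per kb in resveratrol replicates 2 and 3, against 18.9 (Psma3) to 103 (Psma6) CPM per kb with LPS alone. Beta genes averaged 32.4 (Psmb1) to 102 (Psmb4) CPM per kb in those replicates, against 31.7 (Psmb1) to 108 (Psmb4) CPM per kb with LPS alone. The genes of a complex with equal copies of each subunit thus differed several-fold in transcript level in both groups. These levels rest on the longest annotated transcript of each gene. They also depend on read assignment, since 85.7% of the 50-base stretches of the coding sequence of Psma3 occur in transcripts of other genes, as do 79.2% of Psma5, 70.3% of Psmb3 and 65% of Psmb5.

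The 20S assembly chaperones Psmg1 to Psmg4, which build the alpha ring as pairs, were among the lowest members. They averaged 1.66 to 3.94 CPM per kb in resveratrol replicates 2 and 3 and 1.89 to 4.43 CPM per kb with LPS alone. Psmg1 had 1.37, 4.21 and 4.03 CPM with resveratrol, against 4.79, 4.80 and 4.29 CPM with LPS alone, and the groups did not overlap. All 4 had negative log2 fold changes over 5 libraries, from −0.40 (Psmg4) to −0.18 (Psmg1), and over 6, from −0.84 (Psmg4) to −0.37 (Psmg2), and none passed either test. Their intervals were wide at these low counts: over 5 libraries that of Psmg4 ran from −0.95 to 0.16.

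The 6 ATPases Psmc1 to Psmc6 form the ring of the 19S base that unfolds substrates and threads them into the core. None passed the test over either set of libraries. Over 5 libraries their log2 fold changes ran from −0.19 (Psmc5) to 0.15 (Psmc6), with a median of 0.07, and over 6 from −0.23 (Psmc5) to 0.13 (Psmc6). Both ends had intervals that did not include 0, at −0.34 to −0.03 for Psmc5 and 0.02 to 0.28 for Psmc6, but neither passed after adjustment (adjusted p = 0.0686 and 0.0896, edgeR's quasi-likelihood test). Psmc5 did pass downward without LPS replicate 2 or resveratrol replicate 2, and Psmc6 upward without the count filter, with the replicate block and without LPS replicate 1. Psmc2, whose mean over all 6 samples (89.1 CPM) was just above that of Psmc1 (88.8 CPM), had 77.8, 96.5 and 95.5 CPM with resveratrol, against 93.1, 91.0 and 80.8 CPM with LPS alone. Its replicates 2 and 3 lay above all LPS samples and replicate 1 below them. Psmc2 did pass upward over 5 libraries with the length and GC offsets (0.16, adjusted p = 0.0371, edgeR). Without replicate 1, Psmc1 had the higher mean in both groups. The 6 genes lay closer together per length than the core genes did, at 29.9 (Psmc4) to 62.1 (Psmc1) CPM per kb in resveratrol replicates 2 and 3, against 28.1 (Psmc4) to 59.4 (Psmc1) CPM per kb with LPS alone.

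Among the 11 non-ATPase subunits of the 19S cap, 2 passed the test upward over 5 libraries and none downward. Of all tested genes, 11.8% passed upward and 12.9% downward. Psmd11 encodes a lid subunit. It had 89.5, 85.3 and 87.2 CPM with resveratrol, against 74.6, 77.4 and 71.0 CPM with LPS alone. All 3 resveratrol samples lay above all LPS samples, and replicate 1 sat with the other replicates. Of the 50-base stretches of its coding sequence, 32.2% also occur in transcripts of another gene. Psmd11 averaged 87.3 ± 2.1 CPM with resveratrol and 74.3 ± 3.2 CPM with LPS alone (SD, n = 3 each). Its log2 fold change was 0.21 ± 0.06 over 5 libraries (adjusted p = 0.00966, edgeR's quasi-likelihood test) and 0.23 ± 0.09 over 6 (adjusted p = 0.239). Psmd11 did not pass when resveratrol replicate 2 or 3 was also left out (adjusted p = 0.0735 and 0.138, edgeR), which leaves 1 resveratrol library that is assumed to vary like the LPS ones.

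Psmd1 encodes the large scaffold subunit of the base. It had 136, 112 and 110.5 CPM with resveratrol, against 98.1, 100.2 and 100.9 CPM with LPS alone. The groups did not overlap, and replicate 1 was the highest sample. The log2 fold change of Psmd1 was 0.15 ± 0.05 over 5 libraries (adjusted p = 0.0399, edgeR's quasi-likelihood test) and 0.26 ± 0.11 over 6 (adjusted p = 0.263). The call of Psmd1 was lost with DESeq2 (adjusted p = 0.0709), with limma-voom (0.0563), on unscaled library totals (0.0858), with the replicate number as a block (0.117), without LPS replicate 1 or 2 (0.0997 and 0.0664) and without resveratrol replicate 2 or 3 (0.243 and 0.18). It was kept in 5 of the 13 alternatives over 5 libraries.

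Psmd2, the other large scaffold subunit of the base and the cap gene with the most reads, had 119, 144 and 146 CPM with resveratrol, against 134, 132 and 135 CPM with LPS alone. Its replicates 2 and 3 lay above the LPS samples and replicate 1 below them. It did not pass over 5 libraries, at 0.11 ± 0.05 (adjusted p = 0.115, edgeR's quasi-likelihood test), but did with the length and GC offsets (0.16, adjusted p = 0.014, edgeR). Psmd14, the deubiquitinase that removes ubiquitin chains at the lid, had 27.6, 45.5 and 47.5 CPM with resveratrol, against 54.1, 52.3 and 47.6 CPM with LPS alone. Its groups did not overlap, but replicates 2 and 3 came close to the LPS samples, and its log2 fold change of −0.15 ± 0.07 over 5 libraries did not pass (adjusted p = 0.148, edgeR). Psmd6, a lid subunit with the most negative value of the cap, was at −0.19 ± 0.08 (adjusted p = 0.0596, edgeR) over 5 libraries and −0.37 ± 0.18 over 6. Psmd6 did pass downward over 5 libraries on unscaled library totals, with the filter of 50 counts and without LPS replicate 2. The ubiquitin receptor Psmd4 had a log2 fold change of 0.12 ± 0.06 over 5 libraries and −0.03 ± 0.16 over 6. The others, Psmd3, Psmd7, Psmd8, Psmd12 and Psmd13, lay between −0.09 and 0.13 over 5 libraries and between −0.24 and 0.09 over 6. With the length and GC offsets Psmd4 and Psmd7 did pass upward over 5 libraries (0.19 and 0.18, adjusted p = 0.0127 and 0.0305, edgeR).

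The summed level of the 17 ATPase and non-ATPase cap genes was 1046, 1264 and 1261 CPM with resveratrol, against 1223, 1227 and 1192 CPM with LPS alone. Replicates 2 and 3 were slightly above the LPS samples and replicate 1 was below them. Over 5 libraries, all 31 tested core and cap subunits had a 95% interval within 1.5-fold of no change. Among all 45 members 39 did, which is 86.7% beside 54.0% of all tested genes. The width of an interval depends on the number of reads, and low-count genes such as Psmg4 have wide ones. These 2 shares were not compared at equal read numbers. Over 6 libraries, 17 of the 31 had such an interval. The chaperones of the 19S base, Psmd5, Psmd9 and Psmd10, did not pass. Their log2 fold changes were 0.01 (Psmd5), 0.30 (Psmd9) and 0.10 (Psmd10) over 5 libraries and 0.05 (Psmd5), 0.01 (Psmd9) and −0.04 (Psmd10) over 6. Psmd10, the most abundant of them, had 19.6, 29.2 and 26.9 CPM with resveratrol, against 27.0, 27.3 and 23.7 CPM with LPS alone, and the groups overlapped.

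The activators held the largest changes that passed the test. Psme1 and Psme2 encode the alpha and beta subunits of PA28, a ring that caps the core and is induced by interferon gamma. Psme1 had 102, 127 and 132 CPM with resveratrol, against 166, 175 and 170 CPM with LPS alone. All 3 resveratrol samples were below all LPS samples. Of the 50-base stretches of its coding sequence, 21.4% also occur in transcripts of other genes, which held few reads. Psme1 averaged 120.4 ± 16.1 CPM with resveratrol and 170.4 ± 4.6 CPM with LPS alone (SD, n = 3 each). The log2 fold change of Psme1 was −0.40 ± 0.05 over 5 libraries (adjusted p = 8.28e-08, edgeR's quasi-likelihood test) and −0.50 ± 0.12 over 6 (adjusted p = 0.0953). With offsets for length and GC content Psme1 was at −0.18 over 6 (adjusted p = 0.398, edgeR) and at −0.33 over 5, where it still passed.

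Psme2 had 82.4, 192 and 197 CPM with resveratrol, against 289.9, 274 and 261 CPM with LPS alone. The groups did not overlap, and replicate 1 was far below the other resveratrol samples. Its log2 fold change was −0.51 ± 0.05 over 5 libraries (adjusted p = 3.48e-09, edgeR's quasi-likelihood test) and −0.81 ± 0.30 over 6 (adjusted p = 0.21). Psme2 had the highest level per length of all members, at 202 CPM per kb in resveratrol replicates 2 and 3 and 286 CPM per kb with LPS alone. The ratio of Psme1 to Psme2 in CPM was 1.24, 0.665 and 0.668 with resveratrol, against 0.573, 0.640 and 0.649 with LPS alone. It was highest in replicate 1 and slightly above the LPS samples in replicates 2 and 3.

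Psme2 and its copy Psme2b cannot be fully separated by reads. Psme2 lies on chromosome 14 and Psme2b on chromosome 11. Their coding sequences of 720 bases each align without gaps and differ at 5 bases, an identity of 99.3%. A stretch of both (coding bases 434 to 553, from the GENCODE M21 transcripts on GRCm38) shows how few bases tell a read of one from a read of the other, with the 3 bases that differ within it in capitals.
Psme2: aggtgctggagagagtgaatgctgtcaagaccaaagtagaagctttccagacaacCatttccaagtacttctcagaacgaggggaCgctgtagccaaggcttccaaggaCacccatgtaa
Psme2b: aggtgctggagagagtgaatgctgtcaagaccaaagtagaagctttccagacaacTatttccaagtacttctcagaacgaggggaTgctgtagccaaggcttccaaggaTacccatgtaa
Of the 50-base stretches of the coding sequence of Psme2, 69.6% occur in transcripts of other genes, and for Psme2b the share is 70.3%. Psme2b was counted at 59.2, 130.2 and 124 CPM with resveratrol, against 179, 188 and 171 CPM with LPS alone, and the groups did not overlap. Its log2 fold change was −0.51 ± 0.05 over 5 libraries (adjusted p = 1.42e-09, edgeR's quasi-likelihood test) and −0.78 ± 0.27 over 6 (adjusted p = 0.191). The ratio of Psme2b to Psme2 was 0.719, 0.678 and 0.628 with resveratrol, against 0.618, 0.688 and 0.656 with LPS alone, and the groups overlapped. The values of Psme2b and of Psme2 are therefore uncertain as levels of one gene, and Psme2b adds no separate evidence.

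Psme3 and Psme4 moved in opposite directions over 5 libraries. Psme3, named here after its values were seen, encodes PA28gamma, the nuclear form of the activator. It had 105, 75.3 and 75.9 CPM with resveratrol, against 87.0, 88.1 and 85.3 CPM with LPS alone. Replicates 2 and 3 lay below all LPS samples, while replicate 1 was the highest of all. The log2 fold change of Psme3 was −0.21 ± 0.06 over 5 libraries (adjusted p = 0.0079, edgeR's quasi-likelihood test) and −0.02 ± 0.15 over 6 (adjusted p = 0.94). Without resveratrol replicate 2 or 3 as well, it did not pass (adjusted p = 0.0798 and 0.0744, edgeR).

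Psme4 encodes PA200, a single-chain activator. It had 142, 107 and 102 CPM with resveratrol, against 90.2, 89.0 and 92.2 CPM with LPS alone. All 3 resveratrol samples were above all LPS samples, replicate 1 the most. Its log2 fold change was 0.20 ± 0.06 over 5 libraries (adjusted p = 0.00778, edgeR's quasi-likelihood test) and 0.37 ± 0.14 over 6 (adjusted p = 0.223). With offsets for length and GC content Psme4 was at 0.16 over both sets and passed over 5 libraries only. It did not pass without resveratrol replicate 2 as well (adjusted p = 0.189, edgeR). Psmf1, which encodes the inhibitor PI31, had 8.53, 11.9 and 13.2 CPM with resveratrol, against 11.3, 11.3 and 11.2 CPM with LPS alone, and did not pass (0.15 ± 0.12 over 5 libraries, adjusted p = 0.392, edgeR, and −0.01 ± 0.18 over 6). Psmc3ip, the recombination factor, was at 2.10 to 2.46 CPM with resveratrol and 1.74 to 2.97 CPM with LPS alone.

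**Figure D3:**
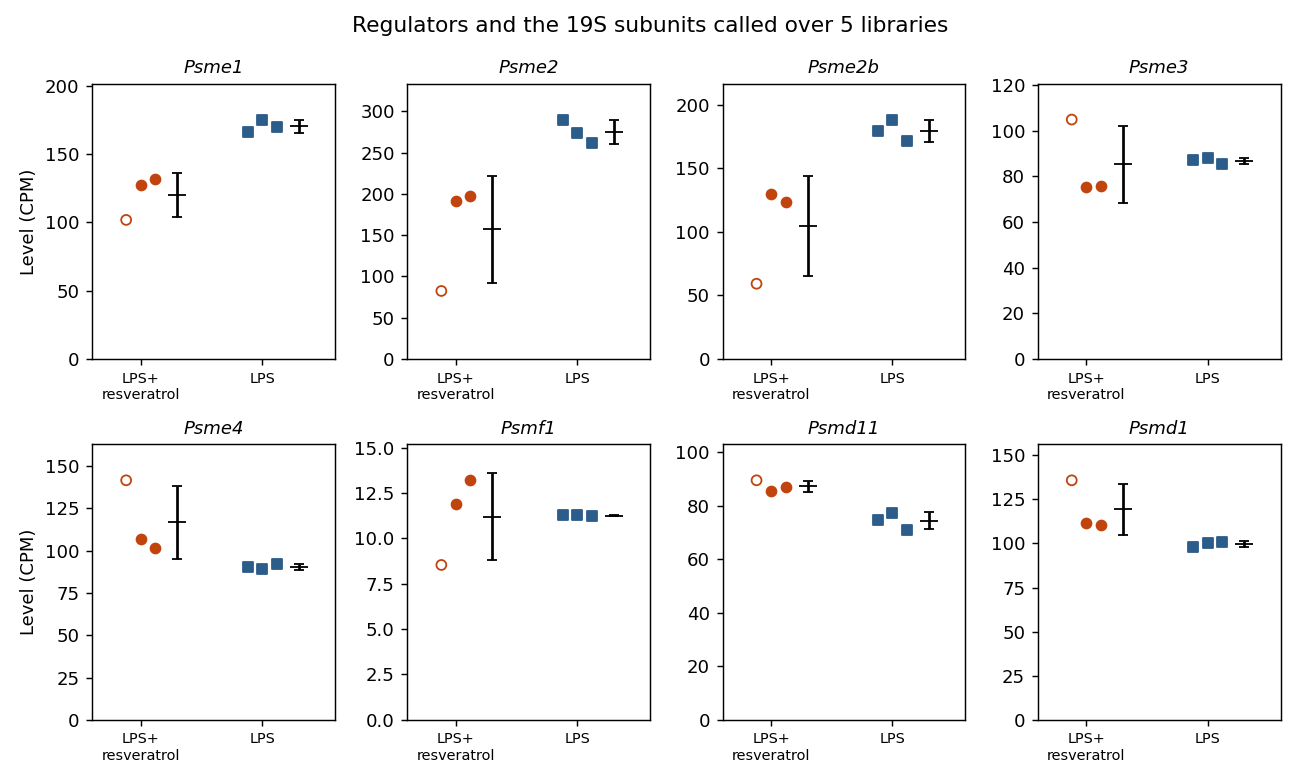
Levels in CPM of the regulators, the Psme2 copy and the 2 called cap subunits, from 0 upward, with LPS+resveratrol on the left and LPS on the right of each panel. Points are samples (open circle, LPS+resveratrol replicate 1), and the bar is the mean with SD over 3 samples. Psme1, Psme2 and Psme2b lie lower in every resveratrol sample, Psme4, Psmd11 and Psmd1 lie higher in every one, and Psme3 is lower in replicates 2 and 3 and highest of all in replicate 1.

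Psme1, Psme2 and Psme2b were called lower in each of the 13 alternatives over 5 libraries. Psme4 was called in 12 of these, Psmd11 and Psme3 in 11 each and Psmd1 in 5. The 3 immunoproteasome genes, known to be induced by interferon like PA28, were all called lower over 5 libraries and none was over 6. Of all tested genes, 12.9% were called lower over 5 libraries and 1.17% over 6. Psmb8 had 7.60, 27.5 and 28.7 CPM with resveratrol, against 43.5, 47.0 and 44.7 CPM with LPS alone (log2 fold change −0.69 ± 0.08 over 5 libraries, adjusted p = 1.47e-08, edgeR, and −1.08 ± 0.43 over 6). Psmb9 had 17.5, 56.9 and 54.7 CPM with resveratrol, against 71.5, 78.7 and 72.1 CPM with LPS alone (−0.42 ± 0.07 over 5 libraries, adjusted p = 7.39e-06, edgeR, and −0.78 ± 0.39 over 6). These are counterparts of the constitutive catalytic genes, whose values did not pass. The difference between both kinds of subunit was not tested.

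The factors that control proteasome genes were read from a list of 5. None was called over 6 libraries and 3 were called higher over 5, with none lower. Of all tested genes, 11.8% were called higher and 12.9% lower over 5 libraries. Nfe2l1, the factor named above, had 425, 475 and 478 CPM with resveratrol, against 396, 399 and 410.1 CPM with LPS alone. Its groups did not overlap, and its log2 fold change was 0.24 ± 0.05 over 5 libraries (adjusted p = 0.000611, edgeR's quasi-likelihood test) and 0.19 ± 0.10 over 6 (adjusted p = 0.311). Ngly1, which removes sugars from NFE2L1 so that it becomes active, had 65.8, 63.8 and 64.3 CPM with resveratrol, against 56.5, 50.1 and 46.8 CPM with LPS alone (0.32 ± 0.07 over 5 libraries, adjusted p = 0.00128, edgeR). Ddi2, the protease that cleaves NFE2L1, was the other one called. Nfe2l2 and Syvn1 were not called. The transcripts of the called Ddi2, Nfe2l1 and Ngly1 have 9553, 4654 and 2935 bases, and those of Syvn1 and Nfe2l2 have 3464 and 2475.

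Of 11 further genes of the pathway, outside the symbols of the set, 10 were found and tested. Over 5 libraries 2 of them were called higher, beside 11.8% of all tested genes, and over 6 libraries 1, beside 0.668%. Zfand5, which binds the 19S cap and stimulates degradation, had 238, 219 and 222 CPM with resveratrol, against 141, 150 and 140.0 CPM with LPS alone. It was the only one of the 10 called over 6 libraries, at 0.66 ± 0.09 (adjusted p = 0.0284, edgeR's quasi-likelihood test), and was at 0.61 ± 0.05 over 5 (adjusted p = 3.3e-12). Ecpas, a scaffold that binds the 26S particle, had 197, 171 and 164 CPM with resveratrol, against 138, 127 and 137 CPM with LPS alone, and was called higher over 5 libraries (0.31 ± 0.05, adjusted p = 1.33e-05, edgeR). The other 8, among them the core chaperone Pomp and the cap subunits Adrm1 and Sem1, were not called over either set. Zfand5 and Ecpas have the longest transcripts of the 10, at 7385 and 7045 bases, beside a median of 2840 over all tested genes. The part of length in their changes was not tested.

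Among 17 genes that supply ubiquitin or deliver substrates, none was called over 6 libraries, while 6 were called higher and 0 lower over 5. Sqstm1, a ubiquitin-binding receptor of autophagy, had 1750, 2819 and 3155 CPM with resveratrol, against 1856, 2080 and 1905 CPM with LPS alone. Replicates 2 and 3 were above all LPS samples and replicate 1 below them (0.61 ± 0.05 over 5 libraries, adjusted p = 2.87e-10, edgeR, and 0.40 ± 0.21 over 6). The polyubiquitin gene Ubb had 1002, 1117 and 1144 CPM with resveratrol, against 911, 903 and 812 CPM with LPS alone (0.36 ± 0.05, adjusted p = 1.54e-06, edgeR), with no overlap. The others called were Ubqln2, Uba6, Vcp and Nploc4. These counts may be read beside the 11.8% of all tested genes called higher over 5 libraries. The transcripts of the 6 called genes range from 1499 (Ubb) to 6590 bases (Uba6).

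Replicate 1 of the resveratrol group set most of the spread in these genes. It was the lowest of the 6 samples for 36 of the 45 tested members, beside 34.4% of all tested genes, and the highest for 6. Its median log2 deviation from replicates 2 and 3 was −0.52 over the members and 0.03 over all tested genes. The deviation was widest for the 20S chaperones, with a median of −1.32, and the beta ring, with −1.17. It was smaller for the alpha ring, with −0.59, the ATPases, with −0.34, and the non-ATPases, with −0.32. No LPS sample deviated like this, as the members' medians there were 0.02, 0.02 and −0.04 against the other LPS samples.

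The deviation went with transcript length and base composition. Across the 43 tested members with a proteasome role, Spearman's rho of the deviation was 0.65 with length (Pearson's r 0.69) and −0.43 with GC content (r −0.45). All points share the same 3 libraries, so the coefficients only describe them. Over all 13446 tested genes with a known length, rho was 0.44 with length and −0.39 with GC content. The 6 members with a GC content of 55% or more had a median deviation of −1.40, beside −0.38 for all such genes. For the 14 members at 50 to 55% it was −0.59, beside −0.06 for all such genes. Below that the signs were opposite. The 15 members at 45 to 50% were at −0.405, beside 0.17, and the 8 under 45% at −0.44, beside 0.26. The log2 fold change itself had a rho with length of 0.74 over 6 libraries and 0.52 over 5. Of the members called higher over 5 libraries, Psme4 has the longest transcript, 6491 bases, Psmd1 has 3112 and Psmd11 2848. Of those called lower, Psme1 has 1112, Psme2 962 and Psme2b 837. Psme3, also called lower, has 2664 bases, close to Psmd11. The part of length in these results was not tested beyond the offsets given above, under which the median of the members was 0.00 over 5 libraries and −0.03 over 6.

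**Figure D4:**
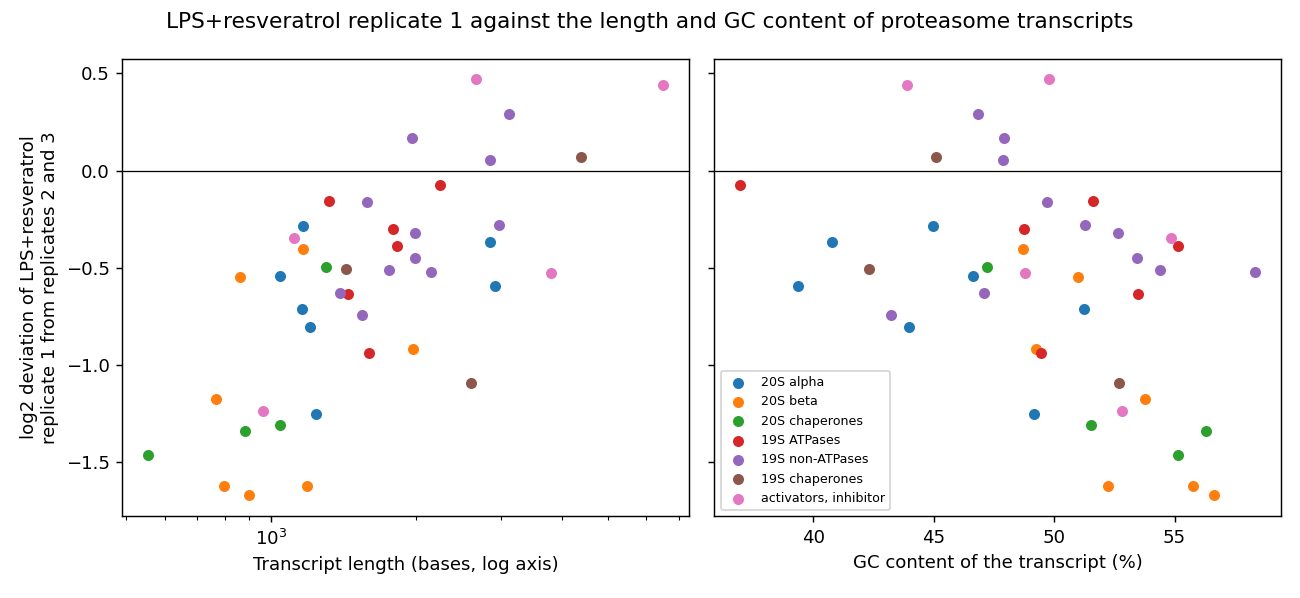
Log2 deviation of LPS+resveratrol replicate 1 from the mean of replicates 2 and 3, against transcript length in bases on a log axis (left) and GC content in percent (right), for the 43 tested members with a proteasome role. Colours mark roles. Short transcripts such as those of Psmb5 and Psmg4 lie lowest, and Psme3 and Psme4 lie above 0.

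Promoter letters were read for members present in the RefSeq table (GRCm38.p6), which matched 38 of the tested members. In the 250 bases before the start, searched on both strands, the ETS motif CCGGAAG was found in 13 of 38 (34.2%), beside 16.3% of 9452 tested genes with such a window. The CCAAT box was also found in 13 (34.2%), beside 40.5%. An antioxidant response core, TGACNNNGC, was found in 5 (13.2%), beside 14% of genes. An interferon-stimulated response element-like motif was found in 3 (7.89%), beside 3.59%, and the GAS motif TTCNNNGAA in 1 (2.63%), beside 7.29%. A match describes letters only and is not a bound site.

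The last 120 bases before the start are shown for the 2 PA28 genes that were lower and for the activator and cap genes with the ETS letters that were higher. The genes were chosen by direction and, for the higher ones, by these letters. The presence of the letters in the higher genes shown thus follows from the choice. Capitals mark CCGGAAG on either strand.
Psme1, chr14:55578374-55578493, plus strand: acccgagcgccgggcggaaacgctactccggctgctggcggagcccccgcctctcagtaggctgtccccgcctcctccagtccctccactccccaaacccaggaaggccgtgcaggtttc
Psme2, chr14:55591022-55591141, minus strand: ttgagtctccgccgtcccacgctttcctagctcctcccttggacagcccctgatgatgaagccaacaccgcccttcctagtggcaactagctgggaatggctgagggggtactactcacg
Psme4, chr11:30771655-30771774, plus strand: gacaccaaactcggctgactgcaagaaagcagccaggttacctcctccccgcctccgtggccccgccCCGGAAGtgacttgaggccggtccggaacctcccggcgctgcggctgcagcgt
Psmd11, chr11:80428495-80428614, plus strand: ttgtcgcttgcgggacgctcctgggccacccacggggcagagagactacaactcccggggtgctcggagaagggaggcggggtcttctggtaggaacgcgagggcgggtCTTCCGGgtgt
Psme4 and Psmd11 carry the ETS letters in this stretch, and Psme3, which was called lower, carries them in its 250 bases. Most members with these letters were not called over 5 libraries: Psma6, Psmc1, Psmc2, Psmc6, Psmd2, Psmd4, Psmd6, Psmd12, Psmg1 and Psmc3ip. None of the 5 motifs was found in the 250 bases of Psme1, Psme2, Psme2b or Psmd1. That holds for these letters in this window alone. The coordinates are those of the RefSeq table and are not taken from the count data.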

How the data were processed

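RNA from sorted neutrophils was sequenced after TruSeq library preparation, per the labels' protocols. The authors deposited raw counts, unnormalized whole numbers for each Ensembl gene. The submitters' processing notes name Bowtie 0.12.2 and the build mm8. Not given in the sources used here are the counter, the annotation and whether strand was used, so overlapping genes on opposite strands may share reads (Psmd9, Psmb7, Psmd13 and Psmc3 among the members). Of 25663 IDs, 25595 matched a symbol in GENCODE M21.

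Over the whole table, counts were filtered with edgeR's filterByExpr (minimum count 10), scaled by TMM and tested with edgeR 4.0.16 in R 4.3.3 by a robust, two-sided quasi-likelihood test of group, with Benjamini-Hochberg adjustment at 0.05. The tested genes held at least 99.82% of each sample's counts. Levels are CPM on TMM-scaled totals of 6 libraries. Standard errors and 95% intervals come from the quasi-likelihood F statistic. Deviations of a library are log2 values with 0.5 CPM added. Length and GC content are those of the longest protein-coding transcript. The scripts were tested on simulated data. No samples of a group had identical counts. Alternatives were DESeq2 1.42.0, limma-voom (limma 3.58.1), other scalings and filters, the replicate number as a block, length and GC offsets and leaving out each library.

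The members, lists and tests were chosen with earlier results of these data known, including that LPS+resveratrol replicate 1 stood apart. Values in every sample are given for members called over 6 libraries, up to 2 called members per direction and role over 5 libraries, the most abundant member of each role and Psmb5, Psmb6 and Psmb7. Psme3, Psmd14, Psmf1 and Psmc3ip were given in addition after their values were seen. Of the other pathway lists, the genes called over 6 libraries and the 2 with the smallest adjusted p are given.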

Additional observations from a re-analysis of the deposited data

How the results depend on the processing

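The calls rest on leaving out LPS+resveratrol replicate 1. Over 6 libraries no alternative gave a member higher or lower at the threshold except DESeq2 (1 lower) and leaving out that replicate: leaving out one library at a time gave 0 to 3 higher and 0 to 4 lower, and medians from −0.26 to −0.05. All-gene calls over 6 libraries were 247, 820 with DESeq2, 810 with length and GC offsets, 392 without the filter and 0 with any other library left out or with the block. Over 5 libraries they were 3407, and 2022 without LPS+resveratrol replicate 3. Over 5 libraries the count of members called higher was 3, but 8 with length and GC offsets, and 0 to 3 when another library was left out, when 3 to 6 were lower. Their median of −0.05 became −0.022 without a filter, −0.026 with the replicate block and 0.004 with the offsets, and −0.047 to −0.010 on leaving out a library.

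No member called over 5 libraries changed sign there in any alternative. Uncalled values did: 11 of the 45 over 5 libraries and 20 over 6 in at least 1 alternative, 6 and 10 of them with the offsets. Among the members given per sample by rule, over 6 libraries Psmc2 became −0.007 on library totals and −0.031 to 0.113 on leaving out a library, Psmd2 −0.006 on library totals and −0.021 to 0.109 on leaving out a library, and Psmd10 0.036 with the offsets and −0.157 to 0.102 on leaving out a library. Over 5 libraries Psmb5 became 0.014 with the offsets and −0.190 to 0.058 on leaving out a library. The cause was not tested.

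Whether the replicate numbers pair the samples could not be decided. The correlation of deviations between same-numbered samples was 0.049, 0.016 and −0.007. Of the 3 resveratrol samples, 2 correlated best with their own number. Resveratrol replicate 1 stood apart and entered the group mean from which each resveratrol deviation was taken, so these values cannot decide it. With the replicate block 0 members were called over 6 libraries (0 of all genes). Over 5 libraries 3 of the 45 tested members were higher (Psmc6, Psmd11 and Psme4) and 4 lower. Of all 13791 tested genes, 1320 were higher and 1439 lower in that fit. At this depth the low counts of the Psmg genes gave wide intervals.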
